A study of Homo sapiens with 4 samples.

Results

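The proteasome is the barrel-shaped protease that degrades ubiquitin-tagged proteins, and 32 genes of its constitutive subunits were examined for open chromatin at their ends. The list holds 7 alpha ring genes (PSMA1 to PSMA7), 7 beta ring genes (PSMB1 to PSMB7), 6 ATPase genes (PSMC1 to PSMC6), 3 further genes of the base of the regulatory particle (PSMD1, PSMD2, PSMD4), 8 lid genes (PSMD3, PSMD6, PSMD7, PSMD8, PSMD11, PSMD12, PSMD13, PSMD14) and PSMD9, a chaperone of regulatory particle assembly. A gene counted as measured when a peak of any library lay within 1 kb of either end of its RefSeq span (hg38), and the tallest such region stood for the gene. By this rule 30 of the 32 genes had a gene-end region, and all 30 had a peak there in each of the 4 libraries. Among the 19970 protein-coding genes considered, 13139 had a gene-end region and 11982 had one with a peak in all 4 libraries.

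The data are ATAC-seq peak lists from AMO1, an established multiple myeloma cell line labelled as blood in origin. In ATAC-seq the Tn5 transposase inserts adapters into accessible DNA, so the number of sequenced fragments over a site reads out how open it is. There were 4 groups with 1 library each: cells of genotype WT transfected with the empty PCDH vector, cells transfected with the same vector carrying PHF19 (genotype PHF19 overexpression), and the same pair again with the prefix IFN in the title. The labels do not say what the prefix stands for, and no agent, dose or time is given for it. PHF19 is an accessory subunit of Polycomb repressive complex 2, which marks genes for silencing. With 1 library per group there is no replicate check, so the intervals given are exact 95% intervals for counting error only, no p-value is reported, and a difference between libraries is not shown to be a difference between conditions. PCR duplicates were kept by the authors, so fragments are not all independent molecules.

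The file headers give 27366066 fragments for the empty vector, 18225965 for PHF19 overexpression, 65904214 for IFN empty vector and 16375721 for IFN PHF19 overexpression, and the lists hold 49155, 44090, 69830 and 45825 peaks. The deepest library, IFN empty vector, was also the one that the file headers place in another project folder. Depth, folder and the prefix therefore cannot be told apart in the empty vector libraries. The IFN-prefixed pair includes this library too, so depth and folder cannot be told apart from PHF19 overexpression in that pair. All 10 plasma cell markers examined had a gene-end peak in every library (summed height 262 to 425 fragments per M, or mega, of library fragments), while of the B cell genes MS4A1 and PAX5 had none in any, CR2 had one in all 4 and CD22 in both empty vector libraries (summed height 1.65 to 2.12). Of the myeloid markers only ITGAM of 5 had a peak (1.498 to 2.87). Between 2 and 4 of the 5 T and NK cell markers had one (15.6 to 17.6), with CD3G without a peak in every library, and 4 or 5 of the 5 stromal and epithelial markers (14.6 to 19.7). As a check of the labels, a peak inside PHF19 (chr9:120857950-120858284) was listed only in both PHF19 overexpression libraries, with 144 and 120 fragments.

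In the 26S proteasome a core particle, called 20S, is capped by a regulatory particle, called 19S. The outer alpha rings of the core gate its channel, and the inner beta rings carry the proteolytic sites, which proteasome inhibitors used against myeloma block. The regulatory particle binds ubiquitin chains, removes them, and unfolds the substrate with a ring of ATPases. Plasma cells and myeloma cells secrete large amounts of immunoglobulin and depend on this degradation capacity. When proteasome activity drops, the transcription factor NFE2L1 is processed into its active form and activates subunit genes together through antioxidant response elements in their promoters.

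Because these genes are known to be transcribed in concert, the promoter sequence under the peaks is shown for 8 of them. PSMA5 and PSMC4 had the tallest gene-end regions of the core and of the regulatory particle by mean height, and PSMA4 and PSMB4 stood at opposite ends of the core genes when the unprefixed PHF19 overexpression and empty vector libraries were compared. PSMB5 encodes the chymotrypsin-like site that bortezomib and carfilzomib bind. PSMC1 had one of the lowest heights, and PSMD8 and PSMD12 carry an ETS motif just upstream of the start site. The sequences are from RefSeq (GRCh38.p14), run 5′ to 3′ on the strand of the gene and end at the base before the annotated start site. They lie at chr1:109426449-109426698 (minus strand), chr15:78540155-78540404 (plus strand), chr1:151399323-151399572 (plus strand), chr14:23035221-23035470 (minus strand), chr19:39970972-39971164 (plus strand), chr14:90256303-90256552 (plus strand), chr19:38374321-38374570 (plus strand) and chr17:67366578-67366827 (minus strand). Capitals mark matches on either strand to CCAAT (read by NF-Y), CCGGAAG (read by ETS factors), the GC box GGGCGG (read by SP family factors), the palindromic nuclear respiratory factor 1 motif, AAGATGGCG (read by YY1), the TATA box TATAAA, and TGACGTCA (read by CREB and ATF).
PSMA5: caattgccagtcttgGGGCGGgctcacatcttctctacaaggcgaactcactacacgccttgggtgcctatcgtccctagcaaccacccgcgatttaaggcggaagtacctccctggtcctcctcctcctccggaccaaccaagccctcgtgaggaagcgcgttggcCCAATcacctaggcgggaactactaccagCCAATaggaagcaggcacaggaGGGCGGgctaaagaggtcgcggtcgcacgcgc
PSMA4: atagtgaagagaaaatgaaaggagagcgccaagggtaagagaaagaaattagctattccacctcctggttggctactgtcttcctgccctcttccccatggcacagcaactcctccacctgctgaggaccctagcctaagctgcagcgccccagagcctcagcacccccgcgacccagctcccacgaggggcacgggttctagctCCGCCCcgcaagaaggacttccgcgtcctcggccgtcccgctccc
PSMB4: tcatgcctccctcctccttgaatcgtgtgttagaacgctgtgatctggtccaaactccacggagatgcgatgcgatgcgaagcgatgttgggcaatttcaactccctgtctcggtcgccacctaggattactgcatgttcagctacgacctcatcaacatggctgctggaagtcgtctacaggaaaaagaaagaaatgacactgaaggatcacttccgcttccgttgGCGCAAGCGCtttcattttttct
PSMB5: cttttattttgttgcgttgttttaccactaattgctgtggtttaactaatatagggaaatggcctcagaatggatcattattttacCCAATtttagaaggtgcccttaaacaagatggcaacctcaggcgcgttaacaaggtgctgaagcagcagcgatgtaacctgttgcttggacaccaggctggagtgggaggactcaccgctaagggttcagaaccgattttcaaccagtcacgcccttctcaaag
PSMC4: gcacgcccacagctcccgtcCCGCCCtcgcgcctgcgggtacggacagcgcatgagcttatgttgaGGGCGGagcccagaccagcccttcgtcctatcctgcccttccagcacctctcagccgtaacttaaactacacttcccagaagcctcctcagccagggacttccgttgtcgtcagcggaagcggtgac
PSMC1: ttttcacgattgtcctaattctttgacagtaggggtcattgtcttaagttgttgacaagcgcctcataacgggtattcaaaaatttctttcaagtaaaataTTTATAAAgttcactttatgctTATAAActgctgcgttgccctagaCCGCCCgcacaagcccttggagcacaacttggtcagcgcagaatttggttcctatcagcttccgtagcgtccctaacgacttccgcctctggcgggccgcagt
PSMD8: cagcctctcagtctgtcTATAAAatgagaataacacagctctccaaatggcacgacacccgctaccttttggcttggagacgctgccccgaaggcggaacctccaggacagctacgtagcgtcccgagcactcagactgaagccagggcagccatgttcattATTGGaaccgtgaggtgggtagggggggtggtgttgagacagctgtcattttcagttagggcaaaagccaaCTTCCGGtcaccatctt
PSMD12: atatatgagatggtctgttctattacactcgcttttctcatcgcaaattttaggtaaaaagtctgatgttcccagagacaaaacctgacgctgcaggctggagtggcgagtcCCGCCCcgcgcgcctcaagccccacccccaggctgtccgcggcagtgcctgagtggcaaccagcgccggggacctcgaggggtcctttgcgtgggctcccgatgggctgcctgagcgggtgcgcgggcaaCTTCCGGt

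PSMA5 carried CCAAT boxes and GC boxes in the printed stretch, PSMA4 a single GC box, and PSMB4 a single nuclear respiratory factor 1 motif. Over the window from 250 bases before to 50 bases after the start site, 27 of the 32 genes matched the RefSeq promoter table (not PSMA7, PSMB1, PSMB6, PSMB7 and PSMD4). The antioxidant response element core TGANNNNGC, a short pattern with 4 free positions that is not capitalised above, was found on either strand in 16 of the 27 windows (59.3%), against 42.6% of all 15811 windows and 43.5% of the 9821 windows of genes with a gene-end region in all 4 libraries. It lay in PSMA3, PSMA5, PSMA6, PSMB2, PSMB3, PSMB4, PSMB5, PSMC3, PSMC4, PSMD1, PSMD3, PSMD8, PSMD9, PSMD12, PSMD13 and PSMD14. A form of the same length with fewer free positions, TGANTCAGC, every match of which is also a match to the core, was found only in PSMD9 (3.70% against 1.10% of all windows). CCAAT was found in 14 windows (51.9% against 36.3%), and GGGCGG in 19 (70.4% against 58.5% of all windows and 70.5% of those of open genes).

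The ETS motif CCGGAAG was found in 10 of the 27 windows (37.0%), against 14.2% of all windows and 1964 of the 9821 of open genes. All 10 belong to genes of the regulatory particle and its chaperone (PSMC1, PSMC2, PSMC6, PSMD6, PSMD7, PSMD8, PSMD9, PSMD12, PSMD13, PSMD14, of 17 such windows). None of the 10 windows of core genes held these exact letters. The median mean height was 7.80 fragments per M for the genes with this motif and 9.37 for those without. Shorter or variant ETS sites were not searched. The shorter CGGAAG lies on one or the other strand in every printed stretch but that of PSMB5, core genes included. The core genes PSMA7, PSMB1, PSMB6 and PSMB7 had no window, and the split between core and regulatory particle was not tested. The nuclear respiratory factor 1 motif was found in 5 windows (18.5% against 8.58% of all windows and 12.2% of those of open genes). AAGATGGCG was found in 2 (7.41% against 2.74% and 4.21%) and TATAAA in 4 (14.8% against 9.64% and 5.56%). The TATAAA matches lay between positions -249 and -122 relative to the start site. TGACGTCA was found in none (2.59% of all windows and 3.34% of those of open genes). A match says only that the letters are present. The GC content of the windows had a median of 60.7%, from 44.7% at PSMC2 to 74.7% at PSMD2, against 62.7% over all windows and 65.3% over those of open genes.

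By median, proteasome genes had somewhat taller gene-end peaks than open genes in general in all 4 libraries. Height is the deposited pileup at the summit, the number of fragments covering that base, divided by the fragments of the library in M. It is given below for the unprefixed empty vector, the unprefixed PHF19 overexpression, the IFN-prefixed empty vector and the IFN-prefixed PHF19 overexpression library, in that order. The median over the 30 genes was 9.88, 8.12, 7.93 and 8.58 fragments per M, against 8.15, 7.13, 6.59 and 7.45 over all 11982 genes open in every library. Each gene's peak was taller than between 52.1% and 99.1% of the peaks of its library, with medians over the genes of 90.1%, 88.0%, 92.6% and 88.5%. These ranks are against all peaks, and a median open gene also ranked high. PSMD7 in the empty vector and PSMB5 in the unprefixed PHF19 overexpression library stood at the median height of all open genes, above 85.9% and 84.9% of the peaks. When all 13139 genes with a gene-end region were cut into 10 equal classes by mean height, 21 of the 30 fell in classes 6 to 10, the top 50%. Of the genes open in every library, class 1 held only 237 and class 10 held 1313, so more than 50% of those also lay in the upper classes. Height depends on base composition, width and mappability as well as on openness, so the order of genes describes peaks and not transcription.

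**Figure D1:**
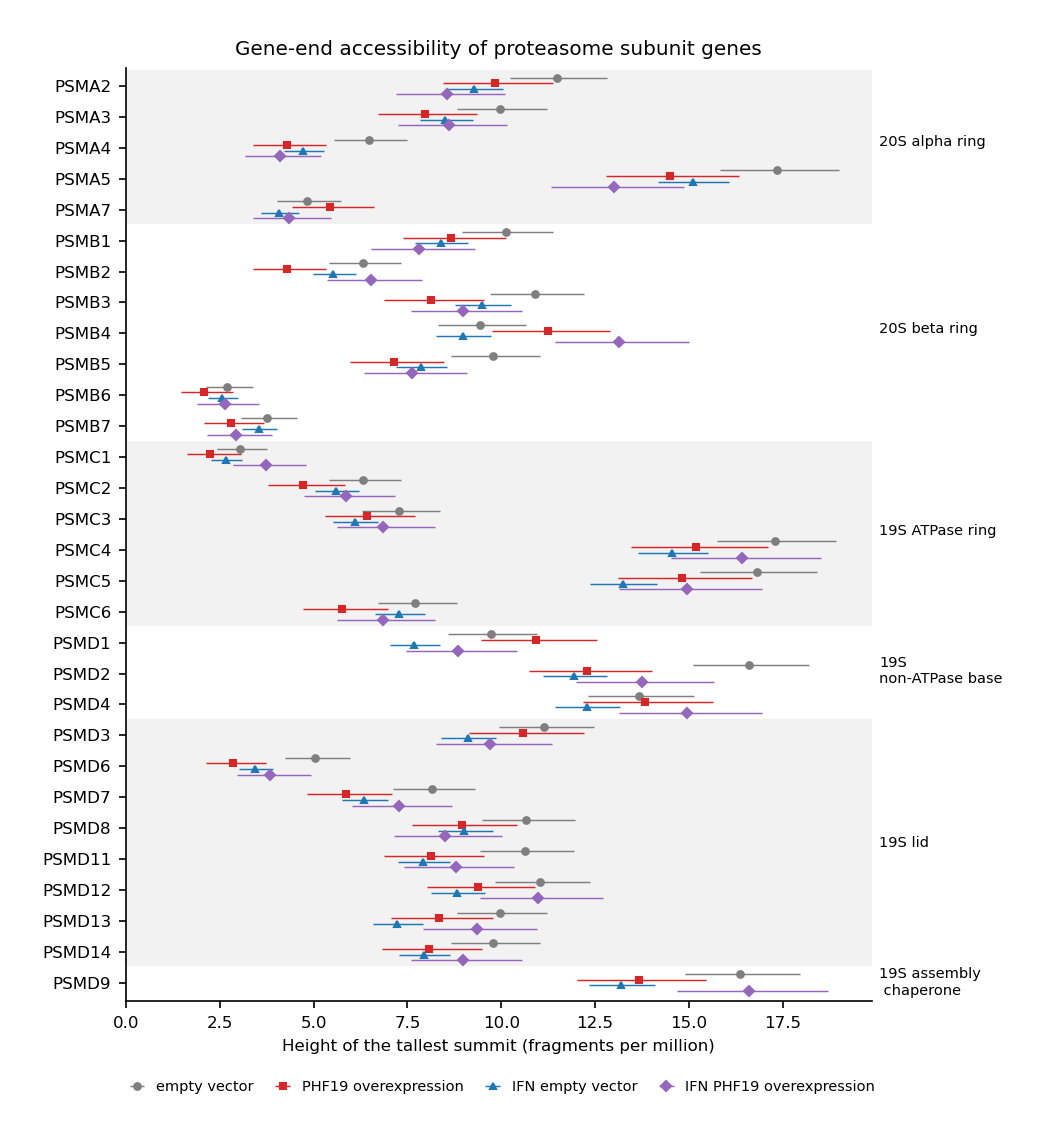
Height of the tallest gene-end summit of 30 proteasome genes in fragments per M (x axis), ordered by the ring or subcomplex of the product, with one marker per library and bars for the exact 95% counting interval. PSMC4, PSMC5, PSMA5 and PSMD9 lie above 13 in every library, and PSMB6, PSMC1 and PSMB7 lie at 3.76 or lower.

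In the alpha ring, PSMA5 had heights of 17.4, 14.5, 15.1 and 13.01 and was the tallest of the core genes in 3 libraries, just below PSMB4, at 13.1, in the IFN PHF19 overexpression library. PSMA2, an alpha ring subunit whose promoter region is shared with the mitochondrial ribosomal gene MRPL32, had 11.5, 9.82, 9.27 and 8.55. PSMA3, an alpha subunit that binds unstructured proteins, had 9.98, 7.96, 8.51 and 8.61. These 3 were highest in the empty vector library, as was the median over all open genes. PSMA4, whose product's tail is central to the closed gate of the core, had 6.47, 4.28, 4.72 and 4.09. PSMA7, an alpha subunit that can also assemble into alternative cores, had 4.82, 5.43, 4.08 and 4.34. Its region is also the gene end of SS18L1, spans 2857 bp and holds 3, 5, 6 and 4 summits in the 4 libraries. PSMA4 was thus tallest in the empty vector library and PSMA7 in the PHF19 overexpression library.

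PSMA1 and PSMA6, the remaining alpha ring genes, were without a region by the rule. In their RefSeq spans the start site of the promoter table lies 15510 and 13759 bp from the nearest end of the span, and the region over that start site lay 14677 and 13075 bp from the nearest gene end. That region was open in all 4 libraries in both genes. At PSMA1 (chr11:14519553-14521034) it had heights of 8.11, 8.07, 7.06 and 7.51. At PSMA6 (chr14:35291633-35293273) it had 7.60, 5.16, 6.22 and 5.92. These values were looked up after the gap was seen and stay outside the counts over the 30 genes.

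Among the beta ring genes, the 3 with proteolytic sites differed several-fold in height. PSMB5, with the chymotrypsin-like site, had 9.79, 7.13, 7.86 and 7.63 at chr14:23034260-23035509. PSMB7, with the trypsin-like site, had 3.76, 2.80, 3.54 and 2.93 at chr9:124414733-124415856. PSMB6, with the caspase-like site, had 2.70, 2.08, 2.56 and 2.63 at chr17:4795635-4796840 and was the lowest of all 30 in each library. The intervals of PSMB5 and the other catalytic genes did not overlap in any library, as the plot of heights shows, although their products are incorporated in equal number into each core.

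The 4 structural beta subunits spanned a similar range. PSMB3 had 10.9, 8.12, 9.48 and 8.98, and PSMB1, whose region is also the gene end of TBP, had 10.1, 8.67, 8.39 and 7.82. PSMB2 had 6.32, 4.28, 5.52 and 6.53. PSMB4 had 9.43, 11.2, 8.98 and 13.1 (258, 205, 592 and 215 fragments). It was the one beta ring gene with both PHF19 overexpression libraries above both empty vector libraries.

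The ATPase ring held both the gene with the largest mean height over the 4 libraries and one of those with the smallest. PSMC4 had 17.3, 15.2, 14.6 and 16.4 (473, 277, 959 and 269 fragments), and PSMC5, whose region is shared with the ribosomal RNA methyltransferase gene FTSJ3, had 16.8, 14.8, 13.2 and 14.96. PSMC1 had 3.03, 2.25, 2.66 and 3.73 (83, 41, 175 and 61 fragments). PSMC1, PSMC3 and PSMC4 encode the ATPases whose C-terminal tails open the core gate, so tall and low regions occurred within that subset. PSMC6 had 7.71, 5.76, 7.28 and 6.84. PSMC3 had 7.27, 6.42, 6.10 and 6.84. PSMC2, which shares its region with the mitochondrial peptidase gene PMPCB, had 6.32, 4.72, 5.60 and 5.86. These last 3 ATPase genes were each highest in the empty vector library, as was the median over all open genes.

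In the base, PSMD2, a scaffold that binds ubiquitin and shuttle proteins, had 16.6, 12.3, 11.9 and 13.7. PSMD4, a ubiquitin receptor, had 13.7, 13.8, 12.3 and 14.96 at chr1:151254403-151255792. PSMD1, the other large scaffold, had 9.72, 10.9, 7.68 and 8.85. PSMD4 and PSMD1 were higher in each PHF19 overexpression library than in its empty vector library before any centring.

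In the lid, PSMD14, the deubiquitinase that removes ubiquitin chains before degradation, had 9.79, 8.07, 7.94 and 8.98 at chr2:161307741-161309103. Its partner PSMD7 had 8.15, 5.87, 6.34 and 7.27. PSMD11, which bridges the core and the base, had 10.6, 8.12, 7.92 and 8.79. All 3 were highest in the empty vector library, as was the median over all open genes. The scaffold subunits PSMD3 (11.1, 10.6, 9.10 and 9.71), PSMD12 (11.04, 9.38, 8.83 and 10.99), PSMD8 (10.7, 8.94, 9.01 and 8.49) and PSMD13 (9.98, 8.34, 7.22 and 9.34, a region shared with SIRT3) lay close together. PSMD6 stood below the rest of the lid with 5.04, 2.85, 3.44 and 3.85. PSMD9, which shares its region with HPD, had 16.4, 13.7, 13.2 and 16.6 and was among the 4 tallest genes by mean height.

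The order of the 30 genes by height was much the same in every library, with Spearman's rho between 0.894 and 0.964 for the 6 pairs of libraries, given as a description over genes whose heights share base composition and mappability. Neighbours in that order could rarely be separated. The intervals of adjacent genes overlapped in 27, 28, 24 and 28 of 29 neighbouring pairs.

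The peaks lay over the start sites. In all 25 measured genes with a start site in the promoter table the region contained it. Regions were chosen near gene ends, where most of these start sites lie, so this follows largely from the rule. The same positions are not given for all open genes. The tallest summit had a median distance of -40, -35, -54 and -48 bp from the start site in the 4 libraries, negative being upstream, and its position within a gene varied between libraries by at most 127 bp (PSMD7), with a median of 36 bp. Upstream summits prevailed, with 11, 8, 10 and 6 of the 25 downstream. The regions were 1122 to 2857 bp long (median 1414.5, against 1464 for all genes), and 7 of the 30 also served as the gene end of a neighbour (30.4% of all genes did).

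**Figure D2:**
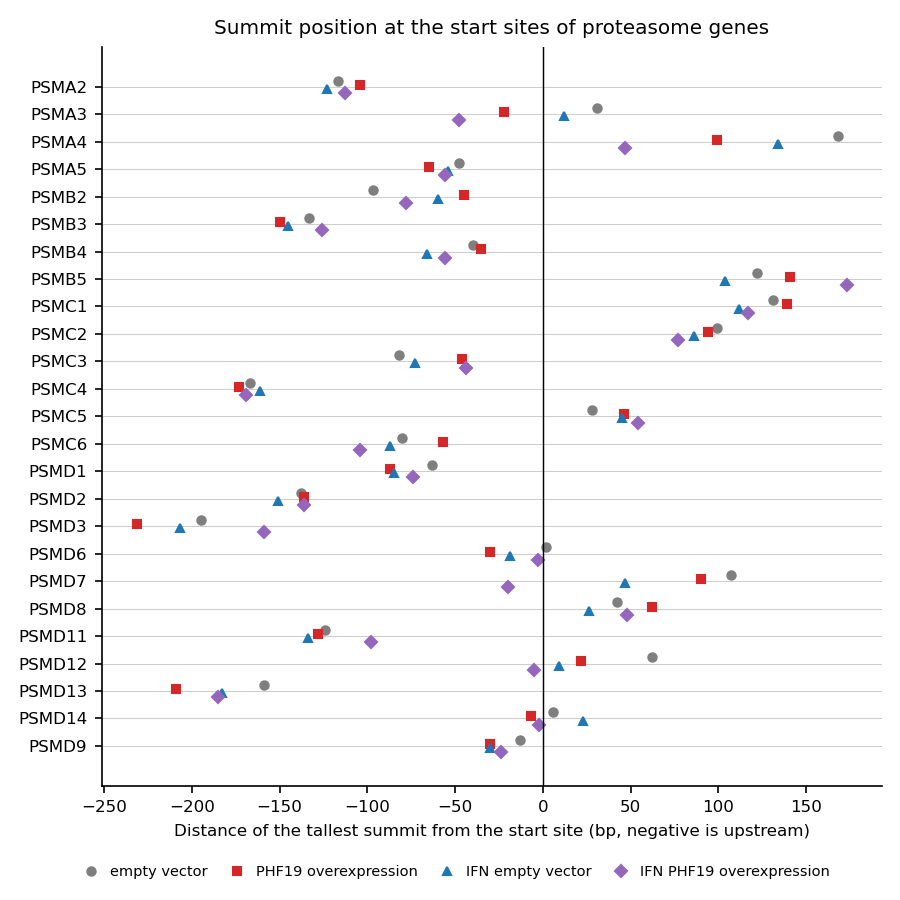
Distance in bp of the tallest summit from the RefSeq start site (x axis, negative is upstream) for the 25 proteasome genes with a start site in the promoter table, one marker per library. The markers of a gene lie within 127 bp of each other, and distances run from -231 bp at PSMD3 to 173 bp at PSMB5.

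Comparing PHF19 overexpression with the empty vector asks how chromatin accessibility differs when this Polycomb subunit is in excess. Log2 ratios of heights were centred on the median of the regions that both libraries of a comparison share. In the unprefixed pair most proteasome genes were lower with PHF19, by small amounts: 25 of the 30 were below 0, and the median was -0.16 (quartiles -0.32 and -0.08). The direction was that of genes in general, since 59.7% of all open genes were below 0 and their median was -0.06. Ribosomal protein genes, another set of strongly transcribed housekeeping genes, had a median of -0.20 (63 of 78 below 0). The ratio depended on height, and against the median of their own height class 22 of the 30 were lower, by a median of -0.07.

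By size, 3 of the 30 were at least 1.3-fold lower (background 8.08% of all open genes) and none was at least 1.3-fold higher (9.65%). The interval lay below 0 in 7 genes (13.5%) and above 0 in 2 (9.14%). PSMD6, a lid subunit, was the lowest, at -0.71 (-1.2 to -0.24), from 52 fragments with PHF19 against 138 with the empty vector. PSMA4 was at -0.48 (-0.89 to -0.09) and PSMB2 at -0.45 (-0.86 to -0.06). The other intervals below 0 belonged to PSMD7 (-0.36), PSMB5 (-0.35, -0.66 to -0.04), PSMD2 (-0.32) and PSMB3 (-0.31). At the other end stood PSMB4 at 0.37 (0.09 to 0.64), PSMA7 at 0.28 (-0.11 to 0.67) and PSMD1 at 0.28 (0.01 to 0.55).

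In the IFN-prefixed pair the genes were spread around 0. The median was -0.01 (quartiles -0.24 and 0.04), with 17 of 30 below 0, against 0.01 over all open genes, of which 48.6% were below 0, and -0.05 over ribosomal protein genes. Without centring the median was 0.16. One gene, PSMB4, was at least 1.3-fold higher (10.9% of all open genes), at 0.38 (0.15 to 0.61), and its interval was the only 1 above 0 (14.3%). At least 1.3-fold lower were 2 genes (6.43%): PSMB7 at -0.44 (-0.92 to 0.02) and PSMA5 at -0.38 (-0.60 to -0.17). Intervals below 0 were found at PSMA5 and PSMA2 (2 genes, 8.89%), PSMA2 being at -0.28 (-0.56 to -0.02). The third lowest gene was PSMA4 at -0.37 (-0.78 to 0.01), and after PSMB4 the highest were PSMC1 at 0.32 (-0.12 to 0.75) and PSMD13 at 0.20 (-0.07 to 0.47).

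**Figure D3:**
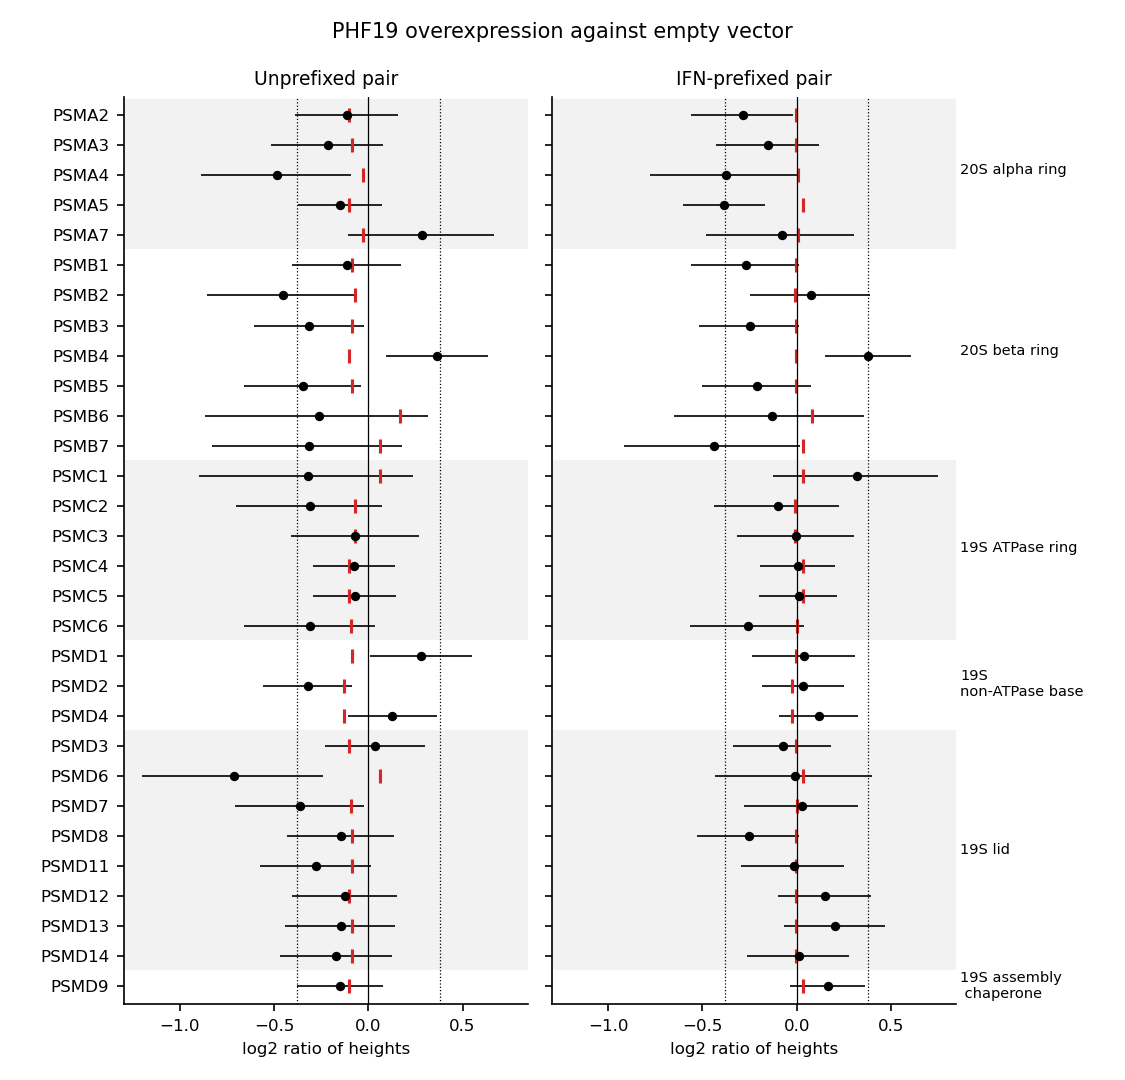
Centred log2 ratio of heights, PHF19 overexpression against empty vector (x axis), in the unprefixed pair (left) and the IFN-prefixed pair (right), with exact 95% counting intervals. Red ticks are the median of all open genes in the same height class and dotted lines mark 1.3-fold; PSMB4 is the gene whose interval lies above 0 on both sides.

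Both pairs can be set side by side because they share no library. The libraries of the IFN-prefixed pair, however, also differ in project folder and most in depth, which cannot be told apart from PHF19 overexpression. The genes of the core and those of the regulatory particle differed in how the pairs compared, a grouping chosen after the values were seen and not tested. The 12 core genes had medians of -0.24 and -0.23, with 10 of 12 below 0 in each pair and 10 of 12 below the median of their height class in each. The alpha ring was at -0.15 and -0.28 and the beta ring at -0.31 and -0.21. The 17 genes of the regulatory particle without PSMD9 had medians of -0.15 and 0.01, with 14 and 7 below 0. Their ATPases were at -0.19 and 0.00, the lid at -0.16 and 0.00, and the other base genes at 0.13 and 0.04. With the median of each gene's surroundings removed, the core was at -0.15 and -0.16 and the regulatory particle at -0.20 and 0.03, so in the unprefixed pair the order of the groups turned. Without centring the core was at -0.35 and -0.06 and the regulatory particle at -0.26 and 0.18.

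No gene was at least 1.3-fold lower in both pairs (2.73% of all open genes), none had its interval below 0 in both (3.99%), and none was at least 1.3-fold higher in both (5.01%), since PSMB4 missed that size in the unprefixed pair by a narrow margin. PSMB4 alone had its interval above 0 in both (6.06%). Below 0 in both were 15 of 30 (37.3%), namely PSMA2, PSMA3, PSMA4, PSMA5, PSMB1, PSMB3, PSMB5, PSMB6, PSMB7, PSMC2, PSMC3, PSMC6, PSMD6, PSMD8 and PSMD11. Above 0 in both were PSMB4, PSMD1 and PSMD4 (28.9%). Among the lowest genes of the unprefixed pair, PSMA4 was at -0.48 and -0.37, but PSMD6 was at -0.71 and -0.01 and PSMB2 at -0.45 and 0.07. Across the 30 genes the ratios of the pairs had Pearson's r of 0.31 and Spearman's rho of 0.21, against 0.61 and 0.50 across all open genes, as descriptions across genes, which are not independent replicates.

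**Figure D4:**
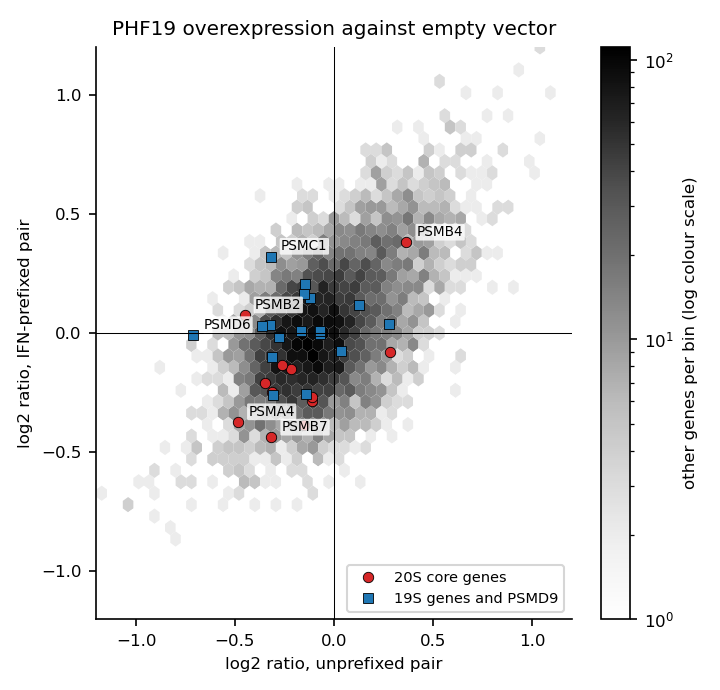
Log2 ratio of PHF19 overexpression against empty vector in the unprefixed pair (x axis) and in the IFN-prefixed pair (y axis). Circles are 20S core genes, and squares are 19S genes and PSMD9. Grey hexagons, with shade on a log scale, are the other open genes within the height range of the proteasome genes. PSMB4 lies at 0.37 and 0.38, while PSMD6 lies at -0.71 and -0.01.

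The genes that stood higher in both pairs had neighbours that did too. PSMB4 and PSMD4 lie 132094 bp apart on chromosome 1, and the median ratio of all regions within 2.5 Mb was 0.30 and 0.31 around PSMB4 and 0.33 and 0.31 around PSMD4. Relative to those surroundings PSMB4 was at 0.07 in both pairs and PSMD4, before at 0.13 (-0.11 to 0.36) and 0.12 (-0.09 to 0.33), was at -0.20 in both. PSMD4 thus turned from above to below 0. PSMD1 on chromosome 2 was at 0.28 and 0.04, and at 0.15 and -0.09 relative to surroundings at 0.13 in both pairs. Among the 3 lowest genes of the unprefixed pair, the surroundings of PSMD6 were at -0.22 and -0.16, and relative to them it was at -0.49 and 0.16. PSMA4 was at -0.50 and -0.33 relative to surroundings at 0.02 and -0.04, and PSMB2 at -0.48 and 0.05 relative to 0.03 in both. Copy number of these stretches was not measured, and its part in the ratios was not tested.

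Of the other catalytic ratios, PSMB6 was at -0.26 (-0.87 to 0.32) and -0.13 (-0.65 to 0.36), PSMB7 at -0.32 (-0.83 to 0.18) in the unprefixed pair, and PSMB5 at -0.21 (-0.50 to 0.07) in the IFN-prefixed pair. All 3 catalytic subunit genes were therefore below 0 in both pairs, with 1 of the 6 intervals clear of 0. Without centring, PSMB6 was at 0.03 and PSMB5 at -0.04 in the IFN-prefixed pair, so the shared direction rests on the centring there. PSMD14 was at -0.17 (-0.47 to 0.13) and 0.01 (-0.26 to 0.28). At the start-site regions outside the rule, PSMA6 was at -0.45 (-0.82 to -0.09) and -0.24 (-0.57 to 0.08), and PSMA1 at 0.10 (-0.21 to 0.41) and -0.08 (-0.38 to 0.21).

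The comparisons between IFN-prefixed and unprefixed libraries of the same vector answer a question that the labels leave unnamed. With the empty vector, 27 of 30 proteasome genes were lower in the IFN-prefixed library, with a median of -0.18 (quartiles -0.25 and -0.11), but so were 85.3% of all open genes, whose median was -0.20. Centring on gene-end regions alone gave a median of 0.02 for the 30 genes, and removing the median of the height class gave 0.03, so the direction followed the choice of reference. At least 1.3-fold lower were 3 genes (14.7%): PSMD6 at -0.46 (-0.78 to -0.15), PSMD2 at -0.39 (-0.56 to -0.22) and PSMD13 at -0.38 (-0.60 to -0.16). None was as much higher (1.71%). PSMD6 and PSMD2 were also low in the unprefixed PHF19 pair, at -0.71 and -0.32. Both comparisons use the unprefixed empty vector library, so these values are not separate observations. The interval lay below 0 in 15 genes (42.5%) and above 0 in none (0.885%). The highest were PSMB4 at 0.02 (-0.20 to 0.23), PSMB6 at 0.01 (-0.39 to 0.42) and PSMC6 at 0.00 (-0.23 to 0.24).

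With PHF19 overexpression the median was -0.00, against -0.06 over all open genes. At least 1.3-fold higher were 2 genes (2.81%), PSMC1 at 0.61 (0.02 to 1.22, from 41 and 61 fragments) and PSMB2 at 0.50 (0.06 to 0.94), and these were also the 2 genes with intervals above 0 (1.13%). At least 1.3-fold lower were 2 genes (5.65%), PSMA7 at -0.44 (-0.90 to 0.01) and PSMD1 at -0.42 (-0.74 to -0.10). Intervals below 0 were found in 2 genes (4.58%), PSMD1 and PSMA5, the latter at -0.27 (-0.54 to -0.00). PSMD6 was the third highest at 0.32 (-0.24 to 0.87), and PSMA2 the third lowest at -0.32 (-0.64 to 0.01). PSMC1 and PSMB2, higher here, had 41 and 78 fragments in the unprefixed PHF19 overexpression library, which both this comparison and the unprefixed one use.

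**Figure D5:**
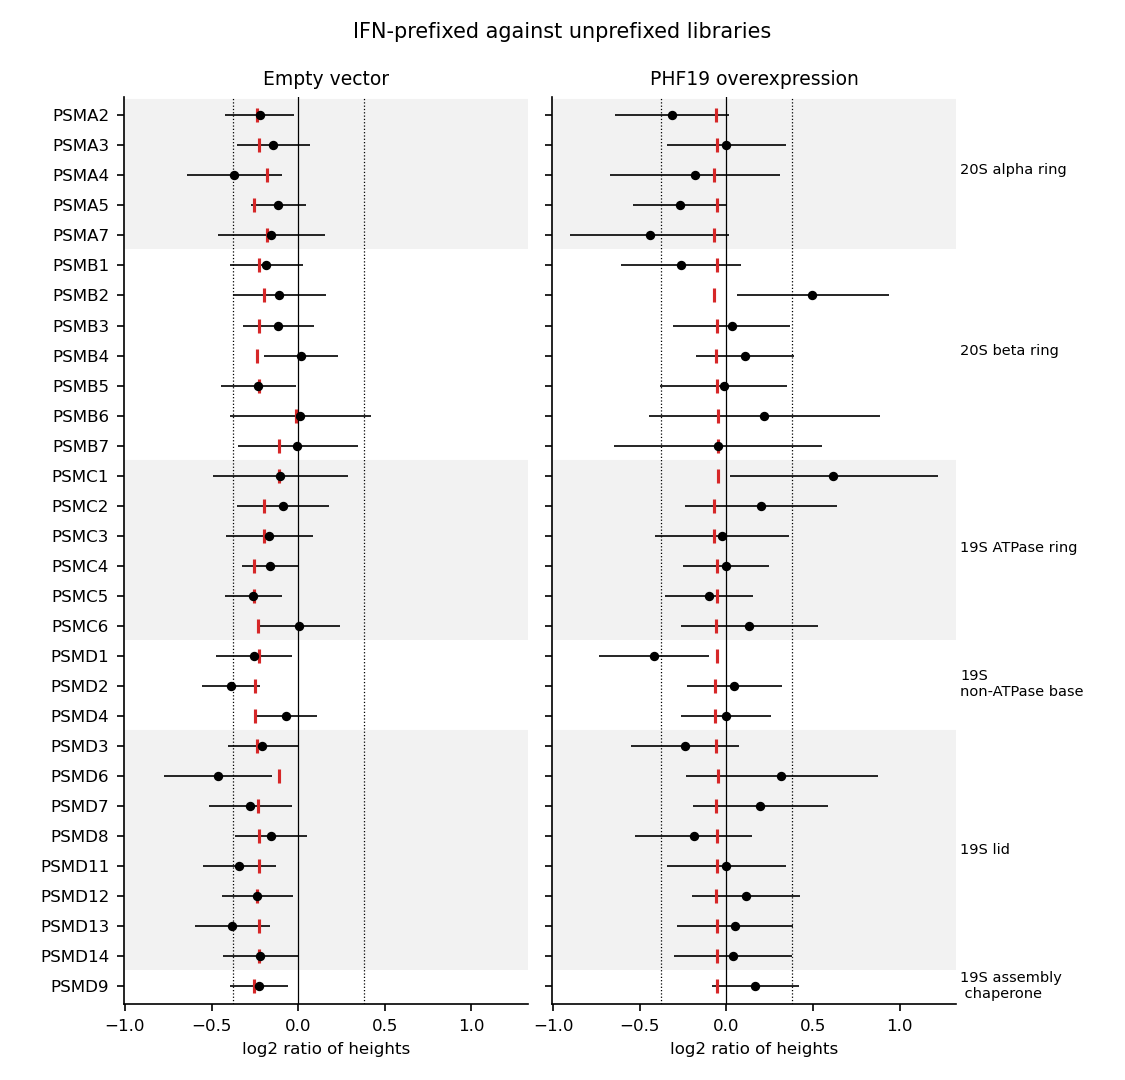
Centred log2 ratio of heights, IFN-prefixed against unprefixed library (x axis), with the empty vector (left) and with PHF19 overexpression (right), with exact 95% counting intervals. Red ticks are the median of all open genes in the same height class and dotted lines mark 1.3-fold; with the empty vector the ticks of most genes lie below 0, and the genes follow them.

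In both of these comparisons, which share no library with each other, PSMD1 was the one gene with its interval below 0 (2.4% of all open genes), at -0.25 (-0.47 to -0.04) and -0.42 (-0.74 to -0.10). That share is near the background. Relative to the median of its height class PSMD1 was at -0.03 and -0.36, so with the empty vector it stood close to its class. None of the 30 was at least 1.3-fold lower in both (0.751%) or higher in both (0.342%). No gene had its interval above 0 in both (0.0751%). Below 0 in both were 15 genes (55.3%), and above 0 in both were PSMB4, PSMB6 and PSMC6 (3 genes, 6.77%). The core genes had medians of -0.13 and -0.03 and those of the regulatory particle -0.22 and 0.04. These directions depended on the reference: the core was at 0.07 and 0.03 with gene-end centring and at 0.06 and 0.02 with the height-class median removed. The regulatory particle was then at -0.02 and 0.10, and at 0.00 and 0.09. Without centring the core was at -0.21 and 0.08, and with the local median removed at -0.05 and 0.02. For PSMB5 the ratios were -0.23 (-0.45 to -0.01) and -0.02 (-0.38 to 0.35), for PSMB6 0.01 and 0.22 (-0.45 to 0.89), and for PSMB7 -0.00 (-0.35 to 0.34) and -0.05 (-0.65 to 0.55). PSMD14 was at -0.22 (-0.43 to -0.00) and 0.04 (-0.30 to 0.38), and PSMD4 at -0.07 (-0.25 to 0.11) and -0.00 (-0.26 to 0.26).

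Of 39 other genes of the ubiquitin and proteasome system, 34 had a gene-end region in all 4 libraries. Their median ratios with PHF19 were -0.15 (28 of 34 below 0) and 0.00 (16 of 34), close to those of the constitutive subunits. In the unprefixed pair 3 were at least 1.3-fold lower (8.08% of all open genes) and none as much higher (9.65%), and in the IFN-prefixed pair 2 were lower (6.43%) and 1 higher (10.9%), so the lower counts are near the background. UBB, a polyubiquitin gene, was the one gene of the 34 at least 1.3-fold lower in both pairs (2.73% of all open genes), a share near the background, with heights of 7.49, 5.32, 5.17 and 4.46 and ratios of -0.38 (-0.75 to -0.03) and -0.38 (-0.77 to -0.01). It passed that size by a narrow margin: it missed it in the unprefixed pair with gene-end centring (-0.33), in the IFN-prefixed pair without centring (-0.21), and in both pairs with the height-class median (-0.31 and -0.37) or the local median removed (-0.33 and -0.32). None was at least 1.3-fold higher in both, and in the comparisons of IFN-prefixed with unprefixed libraries none passed that size in the same direction in both. Between IFN-prefixed and unprefixed libraries their medians were -0.29 with the empty vector and -0.03 with PHF19 overexpression.

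By group, the 6 measured genes of ubiquitin and its supply had medians of -0.27 and -0.03 with PHF19, the 4 proteasome activators -0.23 and 0.00, the 10 other 26S-associated genes -0.14 and 0.08, the 4 regulators of proteasome genes -0.11 and 0.01, and the 7 assembly chaperones -0.09 and -0.05. The 3 inducible subunit genes with a region, which replace the catalytic beta subunits in the immunoproteasome and are induced by interferon gamma, were named after their values were seen. PSMB8 had heights of 13.7, 10.7, 12.5 and 12.2. PSMB9 had 14.3, 12.3, 11.6 and 13.2. PSMB10 had 17.6, 15.5, 15.02 and 16.7. All 3 were thus taller than PSMB5, PSMB6 and PSMB7, which they replace, in each library. Their ratios between IFN-prefixed and unprefixed libraries were -0.06, -0.22 and -0.15 with the empty vector and 0.07, -0.01 and -0.01 with PHF19 overexpression.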

How the data were processed

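ATAC-seq was measured in 4 libraries, 1 per group, assigned from the labels. Per the file headers, the authors called peaks for each library separately with MACS2 2.1.2, on fragments, without a control, at a q-value threshold of 0.01 with an effective genome size of 3000000000 and with duplicates kept. The submitters' processing notes name bcl2fastq 2.17, Trimmomatic 0.38, MACS2 2.1.2, DiffBind and hg38, with the aligner not given in the sources used here. Each deposited summit pileup is a signal in whole fragments and was divided here by the header's fragment total in units of M. The deposited fold enrichment is a ratio to local background, and the authors' −log10 columns of p-value and q-value served only to rank or filter peaks within a list. The deposited positions and lengths were used as 1-based coordinates.

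Peaks overlapping by at least 1 bp on chromosomes 1 to 22 and X were merged into 73729 regions (35731 with a peak in all 4 libraries). The tallest region by mean height within 1000 bp of a RefSeq gene end stood for the gene. Log2 ratios were centred on the median of the regions that both libraries share (-0.11, 0.17, -0.09 and 0.11 for the 4 comparisons). Intervals are exact conditional binomial for ratios and exact Poisson for heights. Genes were called by size (1.3-fold) or by interval, with no test, and the calculation was tested on simulated data. Python 3.11.15, numpy 2.4.6, pandas 2.3.3 and scipy 1.17.1 were used. The named genes were every member, and with ratios and intervals PSMB5, PSMB6, PSMB7, PSMD14, PSMD4, the 3 highest and 3 lowest per comparison and those past a rule in both pairs. Members, lists (other pathway genes, ribosomal protein genes, cell type markers) and motifs were chosen with earlier results of these data known. Alternatives were no centring, centring on gene-end regions, removal of the height-class or local median, a 1.5-fold size, a q-value of 1e-05, and other choices of summit or region. One cell type marker is not reported here.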

Additional observations from a re-analysis of the deposited data

How the results depend on the processing

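Under the alternatives, 29 of 36 medians over the 30 genes stayed within an order-statistic interval around the reported median, 50 of 72 counts within 1.5 times the reported count, and 388 of 400 single-gene ratios within their counting interval. In the unprefixed PHF19 pair the median was -0.27 without centring, -0.11 with centring on gene-end regions and -0.0723 with the height-class median removed. There the genes at least 1.3-fold lower numbered 12 without centring and 6 with the height-class median removed, 1 was 1.5-fold lower, and 1 was higher under centring on gene-end regions and under the height-class median. In the IFN-prefixed pair the median was 0.16 without centring, where 2 were higher and 0 lower. There 0 passed 1.5-fold in either direction, 0 were higher with gene-end centring or peaks at a q of 1e-05, and 0 lower with the local median removed. For the empty vector libraries the median was -0.26 without centring and reversed to 0.0191 with gene-end centring and 0.0268 with the height-class median. The genes lower there numbered 5 without centring, 1 at a q of 1e-05, and 0 at 1.5-fold, with gene-end centring and with the height-class median, under which PSMD14 reversed to 0.0062. With PHF19 overexpression the median was 0.11 without centring, 1 gene was 1.5-fold higher and 0 lower, and the lower genes numbered 0 without centring, 1 with gene-end centring and 0 with the height-class median. A change of centre moves every gene by the same amount, whereas the class and local medians differ between genes, and the cause of those shifts was not tested. The region over the start site was an alternative chosen after seeing the data. No paired analysis was possible because each group holds 1 library. Depth limits PSMB6, PSMC1, PSMB7 and PSMD6 most, with 38 to 52 fragments in the PHF19 overexpression library.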

Other observations

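A second gene-end region was found at 8 of the 30 genes. Of these, 3 were open in all 4 libraries and were also gene ends of a neighbour. The one at the far end of PSMA5, shared with SORT1, had heights of 5.04, 4.12, 4.31 and 3.66. The one at the far end of PSMD9, shared with CFAP251, had 4.68, 3.46, 4.28 and 4.03. At PSMA7 the far end, shared with LSM14B, had 1.24, 1.87, 1.001 and 1.40. PSMA4 had a small second peak in both empty vector libraries (15 and 39 fragments, 0.55 and 0.59 fragments per M of the library). In the deepest library alone, IFN empty vector, PSMD11 had one of 82 fragments (1.24 per M), PSMC1 one of 34 and PSMD4 one of 22. The IFN PHF19 overexpression library alone listed 8 fragments near the end of PSMD14. The lowest pileup listed was 10, 8, 16 and 8 fragments in the 4 libraries, so a missing peak is not an absence of fragments.

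Inside PSMA1 a region at chr11:14577834-14579017, far from both gene ends, had heights of 4.20, 3.18, 4.598 and 2.93, with PHF19 ratios of -0.29 (-0.77 to 0.18) and -0.82 (-1.29 to -0.37). It was noticed after its values were seen. Both PHF19 overexpression libraries were lower than both empty vector libraries there.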
